A study of Mus musculus with 18 samples.

Results

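The transcripts of 10 genes of ammonia disposal and amino acid breakdown were followed in mouse liver. They are the urea cycle genes Nags, Cps1, Otc, Ass1, Asl and Arg1, and the periportal amino acid genes Gls2, Hal, Sds and Tat. They were taken by symbol from the deposited expression tables, which list 25266 genes, and all 10 were among the 11090 genes expressed highly enough to be tested. The urea cycle turns the ammonia released from amino acids into urea, partly in the mitochondrion and partly in the cytosol of the hepatocyte. In the liver lobule these enzymes are most abundant around the portal vein, where blood rich in amino acids arrives, while hepatocytes around the central vein take up leftover ammonia as glutamine. The genes are known to be induced by glucagon, glucocorticoids and protein intake.

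Liver RNA was sequenced from 18 male mice in 4 groups, to ask how a high-fat diet alters liver transcripts with and without SAPS3, a regulatory subunit of protein phosphatase 6 encoded by Ppp6r3. FF mice carry floxed copies of Ppp6r3 (Ppp6r3 fl/fl) and no Cre. LKO mice carry the same floxed copies and in addition a Cre transgene driven by the promoter of albumin, a hepatocyte gene, so that other liver cells keep Ppp6r3. From 8 weeks of age the mice received for 16 weeks either a control diet (CD) with 10% of its calories as fat or a high-fat diet (HFD) with 32.5%. The groups held 4 FF CD, 4 LKO CD, 5 FF HFD and 5 LKO HFD mice, and each mouse gave 1 library.

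Levels are given as RPKM, the reads of a gene per unit of its length and of library depth. This depth, recovered from the steps between low values, was 23.4 to 37.0 M reads per mouse. The summed RPKM was lowest in FF HFD mouse 3 (312292) and at most 397753. The RPKM of Ppp6r3 in every LKO mouse was below that of every FF mouse on the same diet, and its group mean was 0.428 times that of FF mice under CD and 0.559 times under HFD. Marker genes of hepatocytes summed to 31951 to 49215 RPKM, and no marker of any liver cell type searched was at 0 in any mouse. In bulk liver, fewer cells of a type and less RNA per cell cannot be told apart.

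The 10 genes were abundant transcripts with different ranks. By mean RPKM over the 18 mice, Arg1 (687) was the highest and ranked 63 among the tested genes, followed by Ass1 (427), Tat (348) and Cps1 (338), whose group ranges overlapped. Otc (156) and Asl (151) came next, then Sds (85.0), Gls2 (83.9), Hal (47.6) and Nags (13.8), which ranked 2663. Together they made up a share of the summed RPKM that in FF CD mice was 0.755% ± 0.0593 (SD, n = 4), and in LKO CD mice 0.718% ± 0.131 (SD, n = 4). On HFD the FF mice had a share of 0.609% ± 0.111 (SD, n = 5), and the LKO mice one of 0.519% ± 0.0705 (SD, n = 5). By the annotated gene lengths, at least 710 reads stood behind a value of Nags and up to 83991 behind one of Cps1. At 710 reads the counting error is 3.75%, while the SD of Nags between mice of a group was 11.4% to 17.7% of its mean.

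**Figure D1:**
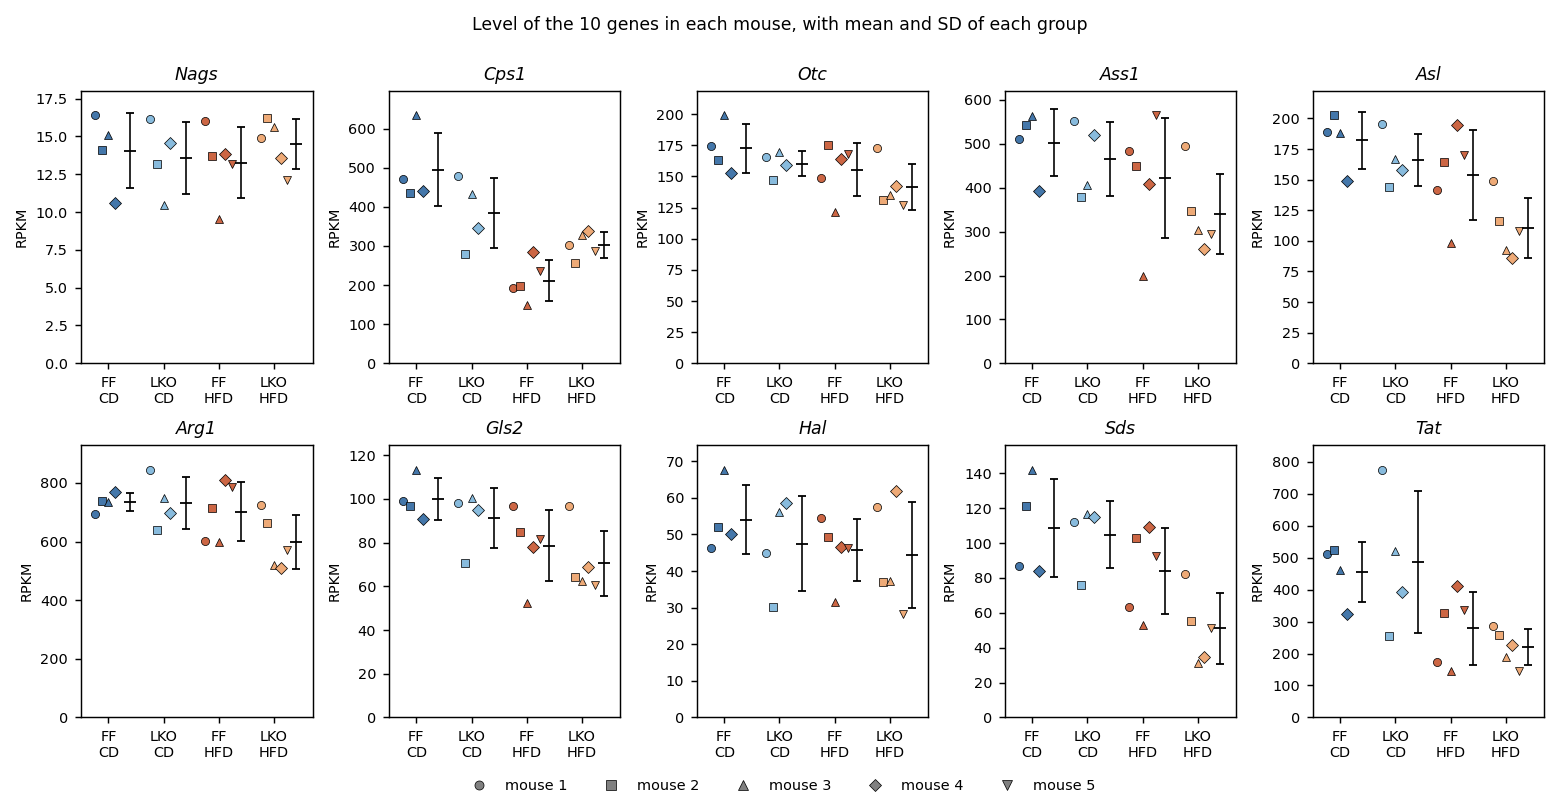
RPKM (vertical axis, from 0) of the 10 genes in each of the 18 mice, by group. The symbol shape gives the mouse number within its group, and the bar beside each group is the mean ± SD of 4 (CD) or 5 (HFD) mice; Cps1 in FF HFD mice lies between 148 and 285, below all FF CD mice, and the mean of Sds is lowest in LKO HFD mice.

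The sequence around the transcription start is shown for 3 of the genes: Hal and Nags, because a searched motif occurred there, and Tat, a classical glucocorticoid-responsive gene, because it varied most between mice of a group. The RefSeq promoter table (GRCm38.p6, 250 bases before to 50 after the start) matched 5 of the 10 genes, Ass1, Hal, Nags, Otc and Tat. Each window is on the plus strand and in lower case, with motif matches in capitals. Hal lies at chr10:93488518-93488817, Nags at chr11:102145263-102145562 and Tat at chr8:109990186-109990485.
Hal: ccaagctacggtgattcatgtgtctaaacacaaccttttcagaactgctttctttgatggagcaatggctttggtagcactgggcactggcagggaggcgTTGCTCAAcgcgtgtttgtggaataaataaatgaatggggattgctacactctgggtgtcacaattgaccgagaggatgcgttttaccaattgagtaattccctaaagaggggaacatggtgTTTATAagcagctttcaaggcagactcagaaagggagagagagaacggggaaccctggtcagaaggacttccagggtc
Nags: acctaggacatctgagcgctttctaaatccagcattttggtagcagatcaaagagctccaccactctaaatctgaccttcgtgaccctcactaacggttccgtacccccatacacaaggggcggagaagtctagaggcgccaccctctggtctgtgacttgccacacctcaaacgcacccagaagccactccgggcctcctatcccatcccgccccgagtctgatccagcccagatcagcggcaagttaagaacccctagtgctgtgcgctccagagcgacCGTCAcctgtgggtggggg
Tat: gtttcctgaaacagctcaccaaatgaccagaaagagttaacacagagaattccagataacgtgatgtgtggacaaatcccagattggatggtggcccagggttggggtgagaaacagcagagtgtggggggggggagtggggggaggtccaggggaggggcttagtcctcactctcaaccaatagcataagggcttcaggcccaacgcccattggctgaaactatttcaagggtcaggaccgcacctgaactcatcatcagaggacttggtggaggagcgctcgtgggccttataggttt
Hal, the first enzyme of histidine breakdown, held a match to the C/EBP motif TTGCNNAA 150 bases before the start and, on the minus strand, a match to the TATA box TATAAA 28 bases before it. Among 32544 promoter windows, 10.8% held the former and 13.6% the latter. Nags held, on the minus strand, the core TGACG of the cAMP response element 32 bases after the start, as did 20.9% of windows. None of the 5 windows held the full cAMP response element TGACGTCA (1.80% of windows), the glucocorticoid response element, its short core TGTTCT (18.9%) or the HNF4A motif CAAAGTCCA (0.479%). A match describes the letters and is not evidence of binding.

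Of the 6 urea cycle genes, Cps1 fell on HFD in FF mice. Cps1 (chr1:67123026-67231259, plus strand) encodes carbamoyl phosphate synthetase 1, which condenses ammonia and bicarbonate in the mitochondrion as the entry step of the cycle. Its RPKM was 471, 435, 634 and 440 in FF CD mice 1 to 4, and 192, 197, 148, 285 and 237 in FF HFD mice 1 to 5. All 5 HFD mice were below all 4 CD mice. The mean was 495 ± 93.7 (SD, n = 4) on CD and 212 ± 51.5 (SD, n = 5) on HFD. On the log2(RPKM + 1) scale, used for all differences, this was a change of -1.24 (standard error 0.18, 95% interval -1.62 to -0.86, limma adjusted p = 0.000157). An exact permutation test of the 9 mice gave p = 0.0159, the smallest it can give for these group sizes. FF HFD mouse 3 had the lowest level. Without it the change was -1.12 (limma adjusted p = 0.000376), and over all alternative settings the adjusted p was at most 0.00160.

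In LKO mice the difference in Cps1 between the diets was smaller and did not pass the test. The RPKM of Cps1 was 479, 279, 433 and 345 in LKO CD mice 1 to 4, and 304, 256, 328, 337 and 288 in LKO HFD mice 1 to 5. LKO CD mouse 2 lay within the range of the HFD mice and the other CD mice above it. The log2 difference was -0.32 (95% interval -0.70 to 0.060, limma adjusted p = 0.311). The difference between the HFD responses of LKO and FF mice (interaction) was 0.92 on the log2 scale (95% interval 0.38 to 1.46) and did not pass at a limma adjusted p of 0.0596. It passed without LKO CD mouse 1 (1.03, adjusted p = 0.0407) or FF HFD mouse 4 (1.03, adjusted p = 0.0303), and the adjusted p reached 0.152 in other settings. The response of Cps1 was thus not shown to differ between the genotypes in the fit of all mice.

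Between genotypes on the same diet, Cps1 did not pass either. Under HFD the log2 difference of LKO from FF mice was 0.54 (95% interval 0.18 to 0.90, limma adjusted p = 0.0810), with 302 ± 32.4 RPKM (SD, n = 5) in LKO mice. Of the 5 LKO mice, 4 were above every FF mouse, and LKO HFD mouse 2 (256) was below FF HFD mouse 4 (285). Without FF HFD mouse 4 the difference was 0.66 and passed (limma adjusted p = 0.0459), and the adjusted p in other settings reached 0.187. Under CD the log2 difference was -0.38 (95% interval -0.78 to 0.022, limma adjusted p = 0.680), with 384 ± 89.3 RPKM (SD, n = 4) in LKO mice.

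Cps1 also stood lower in FF HFD mice relative to the other enzymes of the cycle in the same library, a comparison chosen after the values were seen and given as a description. The ratio of its RPKM to that of Otc, which acts next in the mitochondrion, averaged 2.86 ± 0.24 (SD, n = 4) for FF CD mice, and 1.35 ± 0.24 (SD, n = 5) for FF HFD mice. The LKO mice averaged 2.38 ± 0.43 (SD, n = 4) on CD, and 2.16 ± 0.29 (SD, n = 5) on HFD. The highest ratio in FF HFD mice was 1.74, below the lowest of FF CD (2.66), LKO CD (1.90) and LKO HFD mice (1.76). As a share of the summed RPKM of the 6 urea cycle genes, Cps1 held 23.5%, 19.8% and 20.4% in FF CD, LKO CD and LKO HFD mice and 12.7% in FF HFD mice. The ratio in FF HFD mouse 3 lay within the range of its group.

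**Figure D2:**
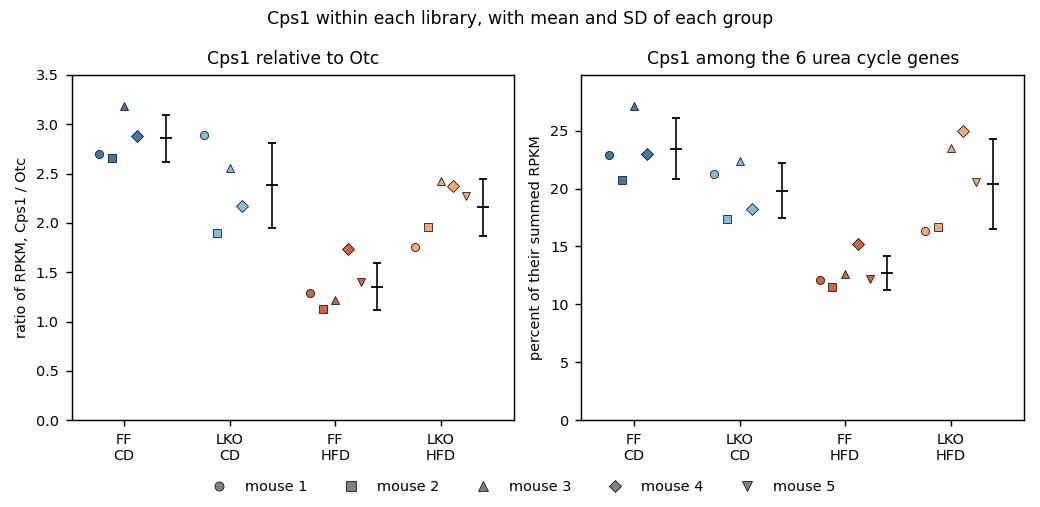
Ratio of the RPKM of Cps1 to that of Otc (left) and the percentage of Cps1 in the summed RPKM of Nags, Cps1, Otc, Ass1, Asl and Arg1 (right) in each mouse, by group, with mean ± SD beside the points and symbol shapes for mouse numbers. The FF HFD mice have ratios of 1.12 to 1.74 and percentages of 11.5 to 15.2, below those of the other 3 groups.

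Nags and Otc, the other mitochondrial genes of the cycle, did not pass the test in any comparison. Nags (chr11:102145513-102149477, plus strand) makes N-acetylglutamate, the activator that CPS1 requires, and its group means lay between 13.3 and 14.5 RPKM. Its log2 difference on HFD was -0.079 in FF mice (95% interval -0.38 to 0.22) and 0.094 in LKO mice (95% interval -0.21 to 0.40), and the sign in both genotypes depended on single mice. Otc (chrX:10252305-10321024, plus strand) encodes ornithine transcarbamylase, which joins carbamoyl phosphate to ornithine. The mean RPKM of Otc was 172, 160, 156 and 141 in FF CD, LKO CD, FF HFD and LKO HFD mice, neighbouring groups in this order overlapping. The log2 difference of Otc on HFD was -0.15 in FF mice (95% interval -0.40 to 0.092) and -0.19 in LKO mice (95% interval -0.43 to 0.059). These intervals lie within a change of 1.5-fold.

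Of the cytosolic genes, Asl came nearest to the thresholds, in LKO mice. Asl (chr5:130011258-130029247, minus strand) encodes argininosuccinate lyase, which releases arginine and fumarate. Its RPKM was 195, 144, 167 and 158 in LKO CD mice 1 to 4, and 149, 116, 92.9, 86.3 and 108 in LKO HFD mice 1 to 5. Of the HFD mice, 4 were below every CD mouse, and LKO HFD mouse 1 lay among the CD mice. The log2 difference was -0.60 (95% interval -0.98 to -0.22, limma adjusted p = 0.0657). It passed without LKO HFD mouse 1 (-0.72, adjusted p = 0.0276), and also without FF HFD mouse 3, which left the difference at -0.60 (adjusted p = 0.0340), and in other settings the adjusted p reached 0.196. In FF mice Asl was 182 ± 23.2 RPKM (SD, n = 4) on CD and 154 ± 36.5 (SD, n = 5) on HFD (log2 difference -0.27, limma adjusted p = 0.310, and -0.12 without FF HFD mouse 3). Under HFD the log2 difference of LKO from FF mice was -0.46 (95% interval -0.82 to -0.11, limma adjusted p = 0.139), and without FF HFD mouse 3 it was -0.61 and passed (adjusted p = 0.0337, reaching 0.308 in other settings).

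Ass1 and Arg1 did not pass in any comparison. Ass1 (chr2:31470207-31520672, plus strand) encodes argininosuccinate synthase, which brings in the second nitrogen with aspartate. The mean RPKM of Ass1 was 503, 465, 422 and 340 in FF CD, LKO CD, FF HFD and LKO HFD mice, with a range of 199.9 to 565 in FF HFD mice. Its log2 difference on HFD was -0.32 in FF mice (95% interval -0.83 to 0.19) and -0.47 in LKO mice (95% interval -0.98 to 0.045), and that of LKO from FF mice under HFD -0.26 (95% interval -0.75 to 0.22). Without FF HFD mouse 3, at 199.9 RPKM, the difference of Ass1 in FF mice was -0.072 and that between genotypes under HFD -0.51. Arg1 (chr10:24915221-24927484, minus strand) encodes arginase, which splits arginine into urea and ornithine. The mean RPKM of Arg1 was 734, 732, 702 and 598 in the same order of groups. The log2 difference of Arg1 on HFD was -0.075 in FF mice (95% interval -0.34 to 0.19) and -0.30 in LKO mice (95% interval -0.56 to -0.032, limma adjusted p = 0.173), where 3 of 5 HFD mice were below every CD mouse. Rescaling every mouse to the same summed RPKM turned the sign in FF mice to 0.015 for Arg1 and to 0.0042 for Nags.

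Among the amino acid genes, Sds fell on HFD in LKO mice. Sds (chr5:120476526-120483932, plus strand) encodes serine dehydratase, which turns serine into pyruvate and ammonia. Its RPKM was 112, 75.9, 116 and 115 in LKO CD mice 1 to 4, and 82.4, 55.4, 31.4, 34.7 and 51.3 in LKO HFD mice 1 to 5. The groups overlapped, because LKO CD mouse 2 stood below its group and LKO HFD mouse 1 above its own. The log2 change was -1.09 (standard error 0.26, 95% interval -1.64 to -0.53, limma adjusted p = 0.0337), and the mean went from 105 ± 19.4 (SD, n = 4) to 51.0 ± 20.4 RPKM (SD, n = 5). The call depended on single mice. It was lost without LKO CD mouse 1 (-1.05, adjusted p = 0.101), mouse 3 (-1.03, adjusted p = 0.102) or mouse 4 (-1.04, adjusted p = 0.0763), and without LKO HFD mouse 3 (-0.94, adjusted p = 0.106) or mouse 4 (-0.97, adjusted p = 0.0661). It was also lost when all genes above 0 were tested (adjusted p = 0.0747) or only the LKO mice were fitted (adjusted p = 0.0749), and the lowest adjusted p of any setting was 0.00936.

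In FF mice the RPKM of Sds was 86.7, 121, 142 and 84.1 on CD and 63.6, 103, 53.1, 109 and 92.3 on HFD, in the order of the mouse numbers. The groups overlapped, and the log2 difference was -0.38 (95% interval -0.94 to 0.17, limma adjusted p = 0.334). The HFD responses of LKO and FF mice differed by -0.71 (95% interval -1.49 to 0.078), which did not pass (limma adjusted p = 0.363), so the response was not shown to differ between genotypes. Under HFD the log2 difference of LKO from FF mice was -0.74 (95% interval -1.27 to -0.22, limma adjusted p = 0.104), with 3 of 5 LKO mice below every FF mouse. Without LKO HFD mouse 1 it was -0.93 and passed (adjusted p = 0.0255, reaching 0.278 in other settings).

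Tat (chr8:109990437-109999803, plus strand), which encodes tyrosine aminotransferase, the first step of tyrosine breakdown, had the widest spread. Its RPKM was 510, 525, 463 and 322 in FF CD mice 1 to 4, and 174, 326, 147, 411 and 337 in FF HFD mice 1 to 5. In LKO mice the RPKM of Tat was 776, 253, 521 and 392 on CD and 285, 257, 189, 227 and 144 on HFD. In FF mice 2 of 5 HFD mice were below every CD mouse and in LKO mice 3 of 5, with LKO CD mouse 2 among the HFD mice. The log2 difference of Tat on HFD was -0.79 in FF mice (95% interval -1.46 to -0.11, limma adjusted p = 0.0898) and -1.06 in LKO mice (95% interval -1.73 to -0.38, limma adjusted p = 0.0679). The latter passed without LKO CD mouse 2 (-1.33, adjusted p = 0.0399) or FF HFD mouse 3 (-1.06, adjusted p = 0.0493), and its adjusted p reached 0.225 in other settings. Under HFD the difference of LKO from FF mice was -0.27 (95% interval -0.90 to 0.37).

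Gls2 and Hal did not pass in any comparison. Gls2 (chr10:128194457-128210004, plus strand) encodes the liver glutaminase, which frees ammonia from glutamine beside the cycle. The mean RPKM of Gls2 was 99.97, 91.1, 78.7 and 70.6 in FF CD, LKO CD, FF HFD and LKO HFD mice. Its log2 difference on HFD was -0.36 in FF mice (95% interval -0.71 to -0.022, limma adjusted p = 0.124) and -0.37 in LKO mice (95% interval -0.71 to -0.029, limma adjusted p = 0.188). In each genotype 4 of 5 HFD mice had less Gls2 than every CD mouse. Hal (chr10:93488768-93519304, plus strand) encodes histidine ammonia-lyase. The mean RPKM of Hal was 54.0, 47.5, 45.7 and 44.4 in the same order of groups, and its log2 difference on HFD was -0.24 in FF mice (95% interval -0.72 to 0.23) and -0.11 in LKO mice (95% interval -0.58 to 0.36). Under HFD the difference of LKO from FF mice was -0.15 for Gls2 (95% interval -0.47 to 0.17) and -0.076 for Hal (95% interval -0.52 to 0.37).

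**Figure D3:**
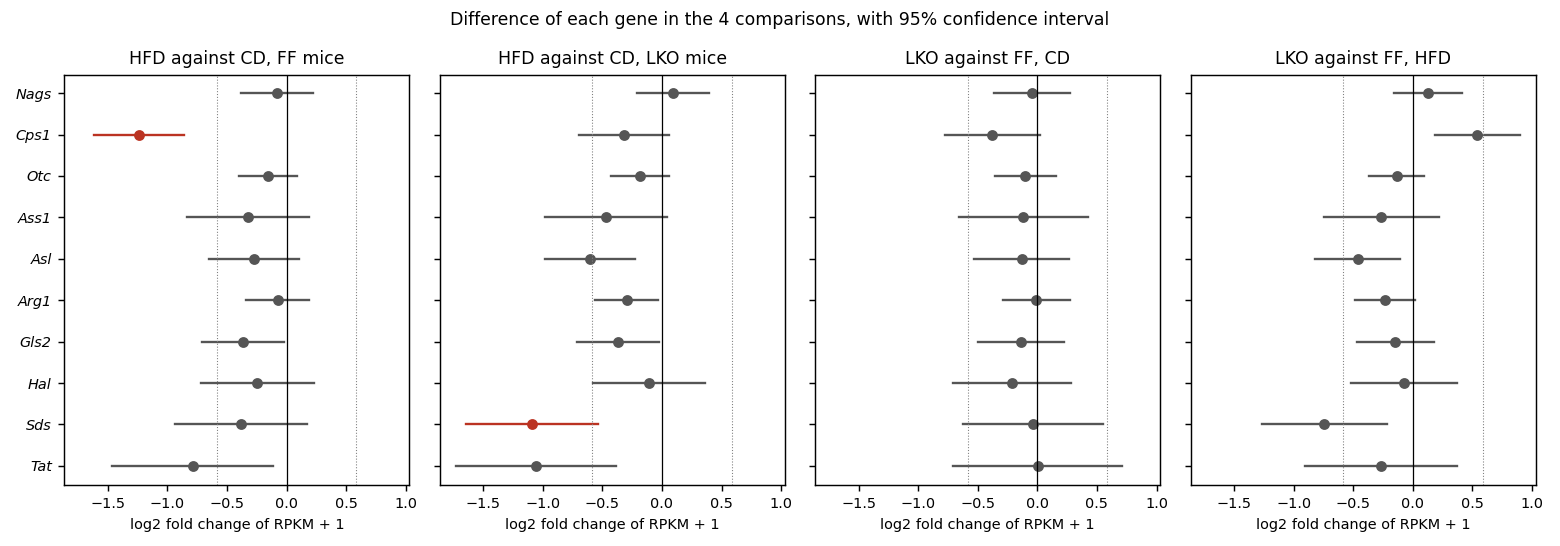
Difference of each gene on the log2(RPKM + 1) scale (horizontal axis) with its 95% confidence interval in 4 comparisons, from the limma fit of 18 mice. Red marks Cps1 in FF mice (-1.24) and Sds in LKO mice (-1.09), which passed the thresholds, grey marks the rest, and the dotted lines stand at a change of 1.5-fold in either direction.

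Counted together, 1 of the 10 genes was called on HFD in FF mice, where 6.60% of all tested genes were called, and 1 of 10 in LKO mice, where 1.27% were. A gene was called at an adjusted p under 0.05 and a change above 1.5-fold. A single call among 10 genes is too few to set against these shares. No gene of the 10 was called between genotypes under CD (0.225% of tested genes called), between genotypes under HFD (2.07%) or in the interaction (2.44%) by limma. At an unadjusted limma p under 0.05 the 10 genes counted 0 under CD, 3 under HFD (Cps1, Asl and Sds) and 1 in the interaction (Cps1), beside 7.67%, 19.3% and 16.5% of tested genes. The same limit was passed by 3 genes on HFD in FF mice and by 5 in LKO mice, beside 33.7% and 22.3% of tested genes. Groups did not overlap for 1 of 10 genes on HFD in FF mice (18.3% of tested genes), and for 0 of 10 on HFD in LKO mice (9.04%) and between genotypes under CD (5.07%) and HFD (4.67%).

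Most differences of the 10 genes lay below 0. On HFD 10 of 10 log2 differences were below 0 in FF mice, with a median of -0.30, while 36.8% of all tested genes were below 0 and their median was 0.071. In LKO mice 9 of 10 were below 0 (all but Nags), with a median of -0.35 against 0.067. The share of all tested genes below 0 there was 34.2%. The median in FF mice rested largely on FF HFD mouse 3, without which it was -0.12, with 9 of 10 below 0 and a median of all genes of 0.1001. With every mouse rescaled to the same summed RPKM, 8 of 10 were below 0 in FF mice. Between genotypes 9 of 10 were below 0 under CD (median -0.11) and 8 of 10 under HFD (median -0.19, all but Nags and Cps1), while 38.3% and 42.6% of all tested genes were. These medians depended on single mice. That under HFD was -0.29 with FF HFD mouse 3 left out and -0.11 with LKO HFD mouse 5 left out. That under CD was -0.19 with LKO CD mouse 1 left out, -0.18 with FF CD mouse 4, -0.044 with FF CD mouse 3 and -0.026 with LKO CD mouse 2. The genes are no independent samples of a condition, since they varied together between mice, as described next.

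**Figure D4:**
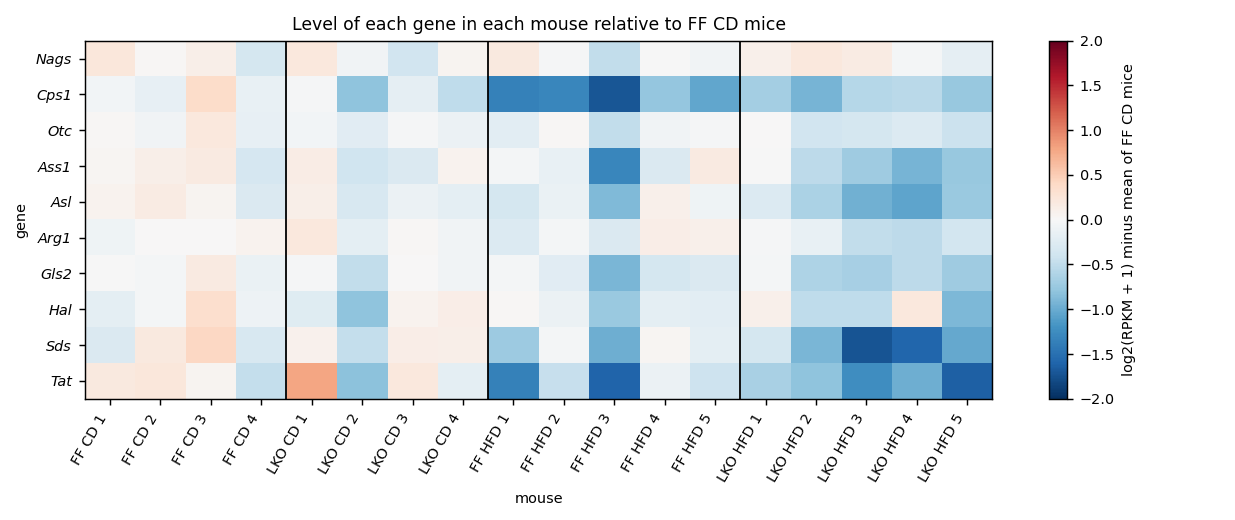
Level of the 10 genes (rows) in each of the 18 mice (columns, by group), as log2(RPKM + 1) minus the mean of the 4 FF CD mice; blue is lower, red is higher, and colours are cut at 2 in either direction. FF HFD mouse 3 is blue for all 10 genes. Cps1 is below 0 in all LKO CD mice and all HFD mice (-1.72 to -0.78 in FF HFD, -0.93 to -0.53 in LKO HFD). Tat and Gls2 are below 0 in all HFD mice of both genotypes. Sds, Ass1, Asl and Arg1 are below 0 in all LKO HFD mice, and in some but not all FF HFD mice.

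Within groups the 10 genes moved together between mice. Over deviations from the group means, the correlation across the 18 mice was above 0 for all 45 pairs of the genes, with a median Pearson's r of 0.61 (0.18 to 0.86), where the median over all pairs of tested genes was 0.13. These values share libraries and their depth scaling. FF HFD mouse 3 was the lowest of its group for 10 of 10 genes, by a mean of 0.55 on the log2 scale below the group mean. Without it the HFD differences in FF mice were also nearer to 0 for Otc (-0.068), Arg1 (-0.019), Gls2 (-0.23), Hal (-0.12), Sds (-0.23) and Tat (-0.59), and that of Nags was 0.025. LKO CD mouse 2 was the lowest of its group for 9 of 10 genes, and LKO HFD mouse 1 the highest for 7 of 10. In FF HFD mouse 3 the lymphocyte and neutrophil markers summed to 8.29 RPKM, the most in its group, and the Kupffer cell markers to 86.1 and the cholangiocyte markers to 54.0, each ranking 2 in the group. The stellate cell markers (108) and the erythroid markers (260) also ranked 2, and the endothelial markers (29.8) ranked 4 of 5. The hepatocyte markers there summed to 35392 RPKM and ranked 4 of 5, near the low end of the group's range of 35309 to 44681. Their part in the low values of this mouse was not tested.

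The spread within groups was wide for several of the genes. Tat had a larger spread on the log2 scale than 98.3% of tested genes, Sds than 96.9%, Ass1 than 95.8% and Hal than 94.8%, while Otc was near the middle (53.3%). Group membership accounted for 76.4% of the variation of Cps1 between the mice, 58.5% for Sds and 55.0% for Asl, but 11.3% for Hal and 5.85% for Nags. These shares are not adjusted for the fitted group means, so they lie above 0 even where no group differs.

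In FF mice, where Cps1 fell on HFD, markers of several other liver cells were higher on HFD than on CD. This compares the groups and does not follow Cps1 from mouse to mouse. Of all tested genes 6.60% were called in either direction in this comparison. The endothelial markers summed to 10.8 to 22.4 RPKM in FF CD mice and 27.7 to 42.8 in FF HFD mice, and 2 of 4 were called higher. The Kupffer cell markers summed to 37.8 to 56.7 and 47.1 to 86.3, with 2 of 5 called higher, and the stellate cell markers to 58.0 to 83.6 and 72.8 to 113, with 2 of 5 called higher. The lymphocyte and neutrophil markers summed to 1.69 to 3.20 and 2.81 to 8.29, with 1 of 3 tested called higher. No cholangiocyte marker (3 tested) and no erythroid marker (3 tested) was called by limma, and 0 of them had an unadjusted p under 0.05. The hepatocyte markers summed to 31951 to 39702 RPKM in FF CD mice, with the FF HFD range given above, and 1 of 5, Apoa1, was called lower (-0.72). In LKO mice, where Sds fell, the Kupffer cell markers summed to 31.6 to 51.8 on CD and 44.8 to 87.9 on HFD, with 1 of 5 called higher, the lymphocyte and neutrophil markers to 1.99 to 3.19 and 3.91 to 7.22, with 1 of 3 called higher, and the endothelial markers to 8.56 to 24.3 and 21.6 to 30.3. There 1.27% of all tested genes were called in either direction. In LKO mice 0 of 4 endothelial markers were called by limma (2 at an unadjusted p under 0.05), and 0 of 5 hepatocyte markers were called by limma (2 at an unadjusted p under 0.05). The stellate cell markers in LKO mice summed to 57.8 to 99.6 on CD and 51.0 to 101 on HFD, with 5 of 5 log2 differences below 0 and a median of -0.19. The cholangiocyte markers summed to 16.2 to 31.4 and 15.3 to 65.9, and the erythroid markers to 47.6 to 273 and 106 to 143. Of these 3 lists no marker was called by limma on HFD in LKO mice, and 0 had an unadjusted p under 0.05. The part of other cells in these differences was not tested.

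Outside the 10 genes, those whose levels ran most alike to those of Cps1 over the 18 mice were Tpst1 (Pearson's r = 0.93), Ttc39b (r = 0.92) and Zfp281 (r = 0.91). Tpst1, a tyrosylprotein sulfotransferase, had mean RPKM of 11.7, 9.83, 5.72 and 8.30 in FF CD, LKO CD, FF HFD and LKO HFD mice, the same order of groups as Cps1. The levels most like those of Sds outside the 10 genes were found for Got1 (r = 0.90), Errfi1 (r = 0.88) and Thrsp (r = 0.86). Among the 10 genes themselves, Asl (r = 0.93) and Arg1 (r = 0.88) ran most like Sds. These correlations span the 4 groups and are descriptions over libraries that share their scaling.

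Genes that feed the cycle were mostly not called. Among 16 partners of the cycle, which supply ammonia, bicarbonate and aspartate or carry ornithine and aspartate across membranes, 15 were tested, and 1 was called in any comparison. Got1, the cytosolic aspartate aminotransferase, fell on HFD in LKO mice by 1.02 on the log2 scale (limma adjusted p = 0.0343), from 101 ± 12.6 RPKM (SD, n = 4) to 52.8 ± 22.9 (SD, n = 5). In that comparison 15 of 15 partners were below 0, with a median of -0.094 (34.2% of all tested genes below 0, median 0.067, and 1.27% called). In FF mice 6 of 15 were below 0, with a median of 0.048. The mitochondrial partner Glud1, which releases ammonia from glutamate, had a log2 difference of -0.033 in FF mice (limma adjusted p = 0.878).

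Genes that break down other amino acids were mostly not called. Of 46 such genes 45 were tested. On HFD in FF mice Gldc, the glycine decarboxylase, rose by 0.65 on the log2 scale (limma adjusted p = 0.0117), and Acmsd, an enzyme of the tryptophan pathway, fell by 1.01 on the log2 scale (limma adjusted p = 0.000478). Acmsd was also lower in LKO than in FF mice under CD (-0.94, limma adjusted p = 0.0252). Of all tested genes 6.60% were called on HFD in FF mice and 0.225% between genotypes under CD. No gene of the list was called by limma on HFD in LKO mice (7 at an unadjusted p under 0.05), where 38 of 45 were below 0 with a median of -0.14, beside the same 34.2% of all tested genes. None was called between genotypes under HFD (11 at an unadjusted p under 0.05), where 35 of 45 were below 0 with a median of -0.10, beside 42.6% of all tested genes. In FF mice 22 of 45 were below 0 on HFD, with a median of 0.0077, and 14 had an unadjusted limma p under 0.05 (33.7% of all tested genes). In this comparison, between genotypes under either diet and in the interaction, at least 1 gene of the list passed the adjusted p and missed only the 1.5-fold limit.

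Other periportal markers did not all move in the same direction on HFD. On HFD 7 of 13 log2 differences were below 0 in FF mice and 8 of 13 in LKO mice, beside 36.8% and 34.2% of all tested genes. On HFD in FF mice 3 of 13 were called, beside 6.60% of all tested genes. Cdh1, encoding E-cadherin, fell by 0.99 on the log2 scale (limma adjusted p = 0.0125), while Hsd17b13, encoding a lipid droplet protein, rose by 0.88 (limma adjusted p = 0.000135) and the steroidogenic Cyp17a1 by 1.74 (limma adjusted p = 0.0120). In LKO mice G6pc, the catalytic subunit of glucose-6-phosphatase, was the only one called on HFD, with a fall of 1.48 on the log2 scale (limma adjusted p = 0.000374). Under HFD 10 of 13 were below 0 in LKO relative to FF mice, with a median of -0.37 (42.6% of all tested genes below 0). There 3 were called lower and 1 higher, beside 2.07% of all tested genes. G6pc (-1.74, limma adjusted p = 3.06e-06) and Etnppl (-1.10, limma adjusted p = 0.0413) were among those lower, and Cdh1 was higher (0.91, limma adjusted p = 0.0460). In the interaction G6pc and Hsd17b13 were called below 0 and Cdh1 above 0, beside 2.44% of all tested genes called. The RPKM of G6pc was 166 ± 35.0 (SD, n = 5) in FF HFD mice and 48.8 ± 9.39 (SD, n = 5) in LKO HFD mice, without overlap.

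On the pericentral side, which holds glutamine synthesis, 1 of 11 genes was called in each diet comparison. Of all tested genes 6.60% were called on HFD in FF mice and 1.27% in LKO mice. Cyp1a2, a drug-metabolizing cytochrome, fell by 1.08 on the log2 scale on HFD in FF mice (limma adjusted p = 6.78e-05), and the transcription factor gene Tbx3 rose by 1.19 in LKO mice (limma adjusted p = 0.0170). Rhbg, encoding an ammonia channel, was lower in LKO than in FF mice under HFD (-0.86, limma adjusted p = 0.0138), beside 2.07% of all tested genes called. Cyp1a2 was also called in the interaction (0.84, limma adjusted p = 0.0292), beside 2.44% of all tested genes.

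None of 16 regulators of amino acid catabolism, among them the glucagon receptor gene Gcgr and the glucocorticoid receptor gene Nr3c1, was called in any comparison by limma, and 1 to 6 of them had an unadjusted limma p under 0.05 in each comparison. Over the comparisons 0.225% to 6.60% of all tested genes were called, and 7.67% to 33.7% had an unadjusted limma p under 0.05. Of 12 targets of glucocorticoids and fasting hormones, Angptl4 (0.84, limma adjusted p = 0.0107) and Igfbp1 (1.08, limma adjusted p = 0.0151) rose on HFD in FF mice, beside 6.60% of all tested genes called. In LKO mice Fkbp5 rose on HFD (0.95, limma adjusted p = 0.0478), and G6pc and Got1, already described, fell, beside 1.27% of all tested genes called. Under HFD 11 of 12 were below 0 in LKO relative to FF mice, with a median of -0.59 (42.6% of all tested genes below 0). Of these G6pc and Igfbp1 (-1.02, limma adjusted p = 0.0460) were called, beside 2.07% of all tested genes.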

How the data were processed

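The authors deposited for each mouse a table of RPKM, that is, read counts scaled to gene length and library depth, by gene symbol. The submitters' processing notes name HISAT2 2.0.4, Partek and the mm10 build. How reads were counted, on which annotation and whether by strand is not given in the sources used here. Values were used as deposited. The number of reads behind each table (23.4 to 37.0 M) was recovered from the steps between low values of single-exon genes, and reads per gene were estimated from annotated exonic length.

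The 11090 genes whose RPKM averaged 0.5 or more were fitted together as log2(RPKM + 1) in limma 3.58.1 under R 4.3.3, with 1 coefficient per group and moderated variances with a trend. The pseudocount of 1 makes the change of low genes appear smaller. Tests were two-sided, with Benjamini-Hochberg adjustment over all tested genes, and calls required an adjusted p under 0.05 and a fold change above 1.5, the thresholds the study uses. Comparisons were between diets within genotype, between genotypes within diet, and their interaction. The replicates are separate mice, and p-values measure the spread between them. Exact permutation tests of 10 genes in 4 comparisons (40 tests, two-sided, unadjusted) ran on the same scale in Python 3.11.15 with scipy 1.17.1, numpy 2.4.6 and pandas 2.3.3, and figures were drawn with matplotlib 3.10.9. On simulated data with 200 changed genes among 11090, the pipeline called most of the changed genes. Whether it would call differences as small as most of those reported here was not tested.

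The 10 genes, the other lists and the tests were chosen with earlier results of these data known. Named are the 10 genes, Ppp6r3, and up to 3 called genes per list and comparison (those averaging 1 RPKM or more with the largest change). Also named are the 3 genes outside the 10 that were most correlated with Cps1 and with Sds. Gene positions are from GENCODE M21 on GRCm38. Alternatives tried were rescaling to the same sum, no filter on low genes, a minimum average of 1 RPKM, 0.1 as pseudocount, quantile normalization, fits of only the groups compared, calls by the adjusted p alone, the replicate number as a block, and leaving out each mouse. Motifs were searched in the promoters of all 5 matched genes, since no called gene was among them. The result of 1 gene of the lists is not reported here.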

Additional observations from a re-analysis of the deposited data

Results flagged for a closer look

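Dixon's test was applied to each of the 10 genes in each group, 40 sets of 4 or 5 mice, and picked out 2 mice far from the rest of their group. Chance gives about 1 such set in 20. Gls2 was at 96.7 RPKM in LKO HFD mouse 1, above the other 4 mice of that group. Sds was at 75.9 RPKM in LKO CD mouse 2, below the other 3 mice of that group.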

How the results depend on the processing

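Of 823 settings over 33 differences of single genes, 800 kept the direction and the side of the threshold. Most of these were differences that were not called and stayed so. The 33 covered all 10 genes on HFD in each genotype and between genotypes under HFD. Under CD between genotypes they covered Cps1 alone, and in the interaction Cps1 and Sds. The other differences of the 10 genes are not in these counts. Of the calls, Cps1 on HFD in FF mice was kept in 25 of 25 settings, and Sds on HFD in LKO mice was lost in 7 of 25. The count of the 10 genes called on HFD in FF mice was 1 in every alternative, with Cps1 between -1.35 and -1.12, and the count under CD between genotypes was 0 in every alternative. The count on HFD in LKO mice was 0 with no filter, where more genes were tested, and 0 with only the groups compared, where fewer mice estimated the variance (adjusted p of Sds 0.0747 and 0.0749, limma). With each mouse left out in turn it ranged from 0 to 3, that under HFD between genotypes from 0 to 1, and that of the interaction from 0 to 1. Without a mouse the sign also turned for Nags on HFD in FF mice (-0.20 to 0.025) and in LKO mice (-0.016 to 0.18), for Hal on HFD in LKO mice (-0.30 to 0.034) and for Hal between genotypes under HFD (-0.21 to 0.066). Rescaling to the same sum moved Nags to 0.0042 and Arg1 to 0.015 on HFD in FF mice, and the cause was not tested.

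With the replicate number as a block (replicate block), the counts of the 10 genes were 1 on HFD in FF mice, 1 on HFD in LKO mice and 0 in the other comparisons, the same as without it. Correlations of same-numbered deviations ran from -0.11 to 0.28, and 9 of 34 comparisons of a mouse with the other group were highest for its own number. This was 4 of 8 between genotypes under CD and 0 of 8 on HFD in LKO mice. Such weak values do not show a pairing by number and cannot exclude 1.

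With 4 or 5 mice per group, the 95% intervals of pairwise differences reached between 0.23 (Otc) and 0.71 (Tat) log2 units to either side. They are not adjusted for the number of genes tested, so a call needed a larger difference than these widths. Tat on HFD in LKO mice (-1.06, with 0.67 to either side) did not pass (limma adjusted p = 0.0679). Differences that were not called may therefore be present and undetected at this number of mice. Levels are of RNA in whole liver, and no enzyme activity, urea or protein was used here.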
